A study of Mus musculus with 36 samples.

Results

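The clustered protocadherins are neuronal adhesion genes that lie side by side on mouse chromosome 18 in the alpha, beta and gamma clusters. Their members were taken as every gene of the count tables whose symbol begins with Pcdha, Pcdhb or Pcdhg. This gave 59 of the 24421 genes: 15 in the alpha cluster, 22 in the beta cluster and 22 in the gamma cluster. Gamma members are of the A type (12 genes), the B type (7 genes) and the C type (3 genes), and the alpha cluster holds 2 more C-type genes, which makes 5 C-type genes in all.

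Poly(A) RNA was sequenced from the cerebellum and the hippocampus of 18 adult C57Bl/6 mice, in 12 of which Pogz, the gene of a zinc-finger and heterochromatin protein, had lost 1 or both alleles to a Cre under the Nestin promoter, which is active across the nervous system. Control mice carried Pogzfl/fl without Cre, cKO+/- mice carried NesCre/+; Pogzfl/+, and cKO-/- mice carried NesCre/+; Pogzfl/fl. Each genotype had 3 females and 3 males, and each animal gave a library from both tissues, so no group carried Cre with intact floxed alleles. Total counts per library ran from 21421850 to 32544929 in the cerebellum (median 28276808) and from 17609321 to 45544188 in the hippocampus (median 35549038).

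Alpha and gamma genes each start at a promoter and a large variable first exon of their own. That exon is spliced to constant exons shared by the whole cluster, whereas a beta gene is a single exon. A neuron is thought to switch on a small, largely random set of the alpha, beta and gamma A and B promoters, with CTCF and cohesin looping an enhancer to each chosen promoter, while the C-type genes are switched on more evenly. The proteins bind copies of themselves on touching membranes, and the resulting code lets a neuron tell its own branches from those of others; granule cells, Purkinje cells and hippocampal neurons all use them.

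Expression is given in CPM, a gene's counts relative to the total of its library, after adjustment by the trimmed mean of M values (TMM). The allele effect is the log2 fold change for each Pogz allele lost (0, 1 or 2), from an edgeR quasi-likelihood fit with sex as a covariate, and a gene is called at a Benjamini-Hochberg false discovery rate below 0.05 over all genes tested. Positive values mean more RNA with fewer intact Pogz alleles. SE is the standard error of the fold change and SD the spread between animals.

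Pogz itself had a lowest, median and highest level of 89.6, 93.1 and 130 CPM in control cerebellum, 66.4, 80.1 and 81.5 CPM in cKO+/- and 57.0, 65.3 and 74.0 CPM in cKO-/-. In the hippocampus the same values were 89.0, 90.7 and 92.8 CPM in controls, 74.0, 75.6 and 80.2 CPM in cKO+/-, and 58.7, 60.7 and 67.7 CPM in 5 cKO-/- libraries. Every cKO library was below every control in both tissues. Pogz fell by 0.30 per allele on the log2 scale in the cerebellum (SE 0.046, edgeR adjusted p = 0.000356) and by 0.28 in the hippocampus (SE 0.020, edgeR adjusted p = 1.79e-07). Because reads from all exons of Pogz are summed, RNA that the deleted alleles still make is included.

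The tissue labels were checked against marker genes. In controls, all 4 Purkinje cell markers (median log2 hippocampus against cerebellum -5.00) and all 4 granule cell markers (-7.29) were called lower in hippocampus, and all 5 hippocampal neuron markers were called higher (2.73). Hippocampal control Sample_1129 had high levels of cerebellar markers, with the granule cell gene Gabra6 at 49.4 CPM against at most 1.09 CPM in the other hippocampal libraries and the Purkinje cell gene Pcp2 at 19.2 CPM against at most 0.894 CPM.

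A pair of libraries stood apart in the protocadherins. In the hippocampal cKO-/- library of Sample_1160, alpha members summed to 1.87 CPM, beta members to 82.3 CPM and gamma members to 13.96 CPM. The nearest cKO-/- libraries had 64.9, 126 and 343 CPM. In the cerebellar control library of Sample_1190, alpha members summed to 29.4 CPM and gamma members to 209 CPM, where the nearest controls had 70.4 and 435 CPM. Both libraries also held less RNA of long genes: the slope of a library's log2 ratio to the tissue median on log2 exon length was -0.719 in the first, where the other hippocampal libraries ran from -0.034 to 0.078, and -0.175 in the second, the lowest of the cerebellum, followed by -0.145 in cKO-/- animal Sample_1379. The part of this length trend in the protocadherin values was not tested. Hippocampal allele effects therefore rest on 17 libraries, without Sample_1160, with the values over all 18 beside them, and cerebellar results are also given without Sample_1190.

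**Figure D1:**
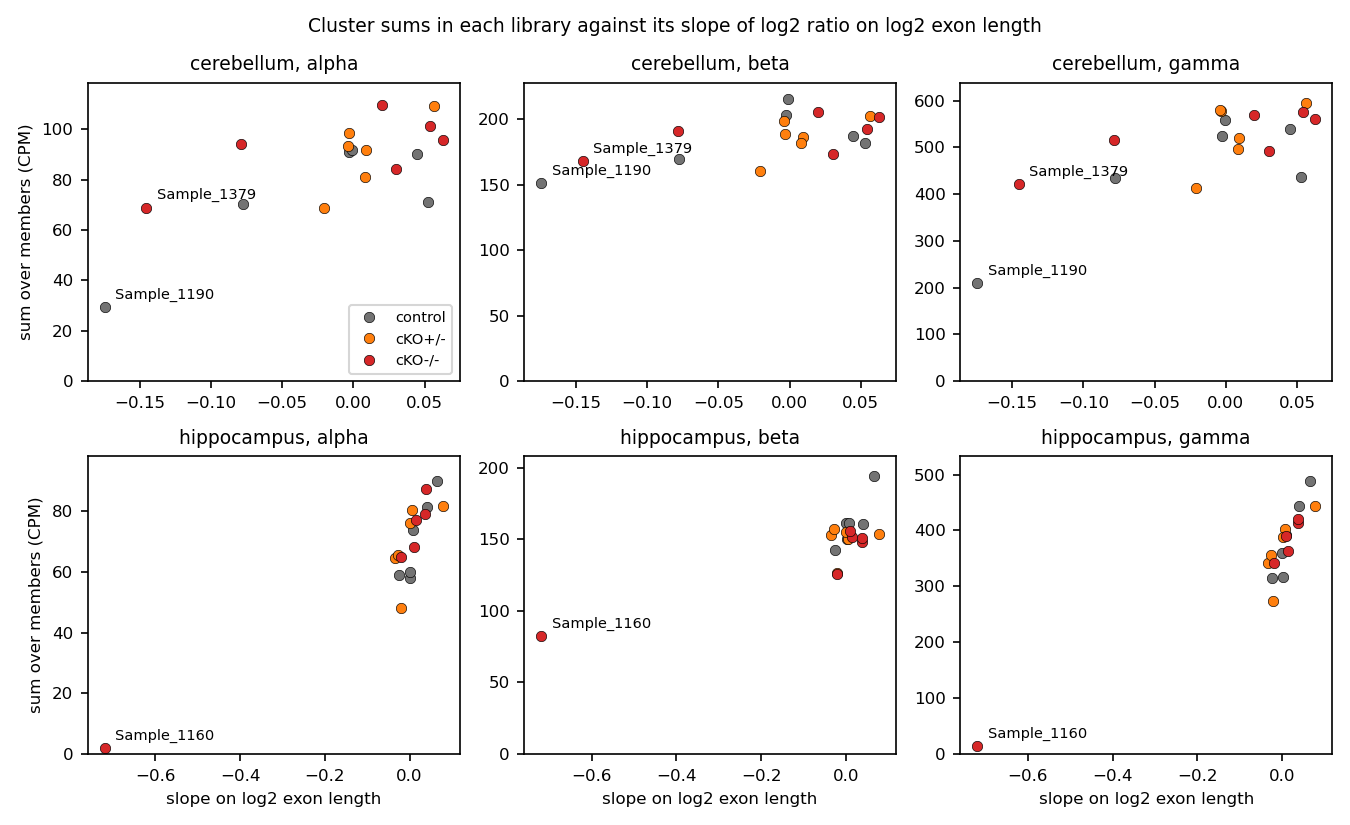
Summed TMM-scaled CPM of the alpha, beta and gamma members in each library (y axis) against the slope of the library's log2 ratio to its tissue median on log2 exon length (x axis), with 1 point per library and colour for genotype. The hippocampal library of Sample_1160 lies at a slope of -0.719 with a gamma sum of 13.96, and the cerebellar library of Sample_1190 at -0.175 with a gamma sum of 209.

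Cluster totals differed little between genotypes against the spread between animals. In the cerebellum, beta members summed to 185 ± 23.2 CPM in controls, 187 ± 14.9 CPM in cKO+/- and 189 ± 14.9 CPM in cKO-/- (mean ± SD, n = 6), and gamma members to 450 ± 129, 531 ± 69.2 and 523 ± 59.3 CPM. Alpha members summed to 74.0 ± 24.0, 90.5 ± 14.003 and 92.3 ± 14.2 CPM there, and the low control mean holds Sample_1190. In the hippocampus (n = 6 controls, 6 cKO+/- and 5 cKO-/-) the sums were 70.3 ± 13.5, 69.4 ± 12.7 and 75.3 ± 8.90 CPM for alpha, 162 ± 17.7, 149 ± 11.5 and 146 ± 11.8 CPM for beta, and 386 ± 70.4, 368 ± 58.5 and 386 ± 32.8 CPM for gamma. The 3 genotypes overlapped in each of these sums, which were not tested as scores.

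How far a member can be told apart from its neighbours depends on exon structure. The alpha cluster spans positions 36930285 to 37187660 of chromosome 18 on coordinates that match GRCm38, beta 37264998 to 37521419 and gamma 37661945 to 37841872. The constant exons, of 59, 89 and 2712 bases in 14 alpha members and of 59, 89 and 1961 bases in all 22 gamma members, are listed under each of them. How reads on shared exons, on repeated sequence or on either strand were counted is not stated. Pcdha4, Pcdha6 and Pcdha7, which list the alpha constant exons but have 0 unshared bases, had mean cerebellar counts of 5.33, 5.44 and 4.22. Reads on the alpha constant exons were thus not credited to each member. Bases that no other listed gene shares had a median of 2382 over all 15 alpha members, 3334 in beta and 2505 in gamma. Beta members have similar single exons: of the 43-base windows in the transcripts of 21 members, 0% to 14.8% (median 5.62%) were also found in a transcript of another gene. Values of members with similar sequence are uncertain by an amount that was not measured, and members are not replicates of one another.

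Of the 59 members, 53 had more than 1 CPM in at least 6 libraries and were tested in both tissues: 10 alpha, 21 beta and all 22 gamma. The 6 others were Pcdha4, Pcdha6 and Pcdha7, which have 0 unshared bases, the alpha-gamma fusion Pcdha7-g, with 122, Pcdha8, with mean counts per library of 23.1 in cerebellum and 12.1 in hippocampus, and Pcdhb1. Pcdhb1, the first beta gene of the cluster, had a mean of 1.94 counts in cerebellar and 2.11 counts in hippocampal libraries and stayed at or below 0.446 CPM, too few for any comparison.

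Levels of members were compared per kilobase of unshared exon sequence in the 6 controls. In the cerebellum, the C-type gene Pcdhgc3 had the highest level at 63.5 ± 20.9 CPM per kb (mean ± SD), followed by the C-type gene Pcdhac2 at 15.9 ± 5.74 and Pcdhga11 at 13.7 ± 3.69, and these last values lay within their spreads of each other. In the hippocampus the first places went to Pcdhgc5 at 40.8 ± 8.49 CPM per kb, Pcdhgc3 at 24.5 ± 4.41 and Pcdhac2 at 13.9 ± 2.54. C-type genes thus held the top 2 places in cerebellum and the top 3 in hippocampus, while Pcdhac1 had 2.23 and 1.63 CPM per kb in the 2 tissues, Pcdhgc4 7.19 and 3.57, and Pcdhgc5 4.96 in cerebellum. After Pcdhac2, the highest alpha member was Pcdha12 at 2.29 ± 0.798 and 2.99 ± 0.929 CPM per kb, with Pcdhac1 at 2.23 ± 0.788 level with it in cerebellum. The highest beta members were Pcdhb17 at 6.55 ± 0.866 and Pcdhb20 at 5.03 ± 0.635 in the cerebellum, with Pcdhb9 at 5.02 ± 0.775 level with the latter, and Pcdhb17 at 5.64 ± 0.591 and Pcdhb9 at 5.30 ± 0.524 in the hippocampus, where the pair lay within their spread.

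By cluster, the median level in cerebellum was 1.32 CPM per kb over 11 alpha members with unshared bases, the fusion Pcdha7-g left out (0.426 to 15.9), 1.80 over the beta members (0.0323 to 6.55) and 4.92 over the gamma members (1.94 to 63.5). In hippocampus the medians were 1.55 (0.187 to 13.9), 1.84 (0.0260 to 5.64) and 4.21 (0.876 to 40.8). The gamma cluster was the highest in both tissues, and dividing by the full exon length, which counts the shared exons for every member, gave medians of 0.610 and 0.704 for alpha and 2.66 and 2.27 for gamma.

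**Figure D2:**
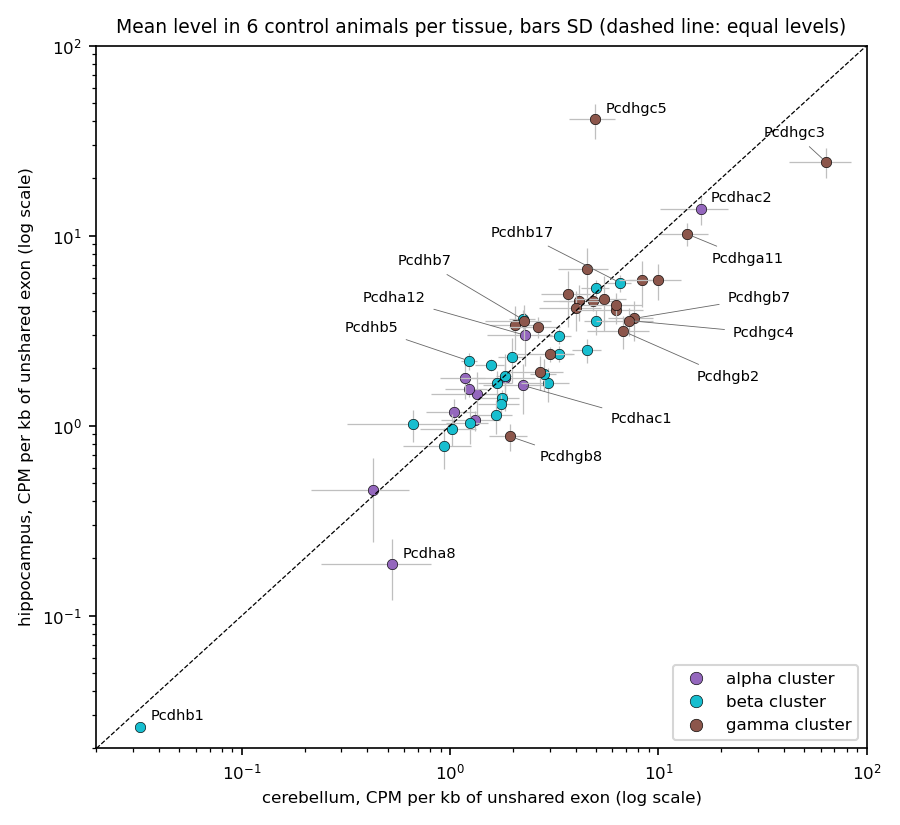
Level of each member in control hippocampus (y axis) against control cerebellum (x axis), in TMM-scaled CPM per kilobase of unshared exon on log axes, with points at the mean of 6 animals, bars the SD and a dashed line at equal levels. Pcdhgc5 lies far above the line (4.96 in cerebellum and 40.8 in hippocampus) and Pcdhgc3 below it (63.5 and 24.5).

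The first comparison asked how the clusters differ between the 2 tissues without any Pogz deletion. Among 53 tested members, 11 were called higher in control hippocampus and 14 lower, in a fit where 71.9% of the 14224 genes tested were called (35.2% higher and 36.7% lower). The members' median log2 difference was -0.13 against -0.02 over all genes. An unadjusted p under 0.05 was reached by 26 of 53 members and by 10492 of 14224 genes. Alpha members had 2 called higher (Pcdha3 and Pcdha5) and 0 lower in edgeR and in DESeq2, with 0 lower at an unadjusted p under 0.05. Beta members had 4 higher and 6 lower, and gamma members 5 higher and 8 lower.

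Pcdhgc5 and Pcdhgc3, both of the C type, had the largest differences, in opposite directions. Pcdhgc5 had a lowest, median and highest level of 6.91, 14.2 and 15.1 CPM in control cerebellum and 83.8, 101 and 138 CPM in control hippocampus. All 6 hippocampal values lay above all 6 cerebellar ones, with a log2 difference of 3.11 (SE 0.19, edgeR adjusted p = 3.96e-09). Pcdhgc3, a member known for its part in dendrite growth, had 65.2, 180 and 211 CPM in cerebellum and 49.0, 64.4 and 78.0 CPM in hippocampus. It was lower in hippocampus (log2 difference -1.29, edgeR adjusted p = 0.000214), and the low cerebellar value, from Sample_1190, overlapped the hippocampal range while the other 5 did not. Pcdhgc4, which supports the survival of interneurons, ran from 9.12 to 28.2 CPM in cerebellum and from 9.06 to 13.4 CPM in hippocampus (log2 difference -0.92, edgeR adjusted p = 0.00173). For Pcdhac1 (-0.39, edgeR adjusted p = 0.227) and Pcdhac2 (-0.13, edgeR adjusted p = 0.661) the test was not passed with all controls, while both were called lower without Sample_1190.

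Within the beta and gamma clusters, members lay on both sides of the difference. The beta genes Pcdhb5 (log2 difference 0.92, edgeR adjusted p = 1.00e-06), Pcdhb7 (0.79, edgeR adjusted p = 7.63e-06) and Pcdhb3 (0.51, edgeR adjusted p = 0.000989) were higher in hippocampus. Pcdhb4 (-0.17, edgeR adjusted p = 0.346) and Pcdhb6 (0.01, edgeR adjusted p = 0.981), which lie among them, were not called, and Pcdhb8, directly after Pcdhb7, was lower (-0.47, edgeR adjusted p = 0.0212). The last 9 beta genes in the row, Pcdhb14 to Pcdhb22, all had values below 0 (-0.78 to -0.13), of which 5 were called, Pcdhb20 among them (-0.42, edgeR adjusted p = 0.00305). In the gamma cluster the first gene, Pcdhga1, was higher in hippocampus (0.79, edgeR adjusted p = 0.00172), and the B-type genes Pcdhgb2 (-1.04, edgeR adjusted p = 0.000896), Pcdhgb7 (-0.98, edgeR adjusted p = 0.000348) and Pcdhgb8 (-1.06, edgeR adjusted p = 5.39e-05) were lower, with a median of -0.70 over 7 B-type members. The B-type gene Pcdhgb1 was called higher (0.74, edgeR adjusted p = 0.0116).

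Leaving out Sample_1190 gave 10 members called higher and 22 lower, where 4673 of 13600 genes were higher and 4789 lower. Leaving out Sample_1129, the hippocampal library with high cerebellar markers, gave 10 and 12, where 4689 of 13493 genes were higher and 4871 lower. With the animal as a replicate block the counts were 11 and 13, Pcdhga6 being lost.

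The second comparison asked how the members follow Pogz dosage in the cerebellum. Of 53 tested members, 1 was called higher and 2 lower with fewer Pogz alleles, where 13.7% of the 14027 genes tested were called (7.11% higher and 6.55% lower). All 3 belong to the gamma cluster. An unadjusted p under 0.05 was reached by 7 of 53 members and by 4233 of 14027 genes. The members' median allele effect was 0.07 against 0.00 over all genes, with 34 members above 0 and 19 below, but without control Sample_1190 the median was 0.00 with 27 above and 26 below.

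Pcdhgb7, a B-type gamma gene at positions 37751779 to 37841870, was the member called higher. Its 6 control cerebella had 10.6, 16.5, 18.7, 19.4, 21.8 and 23.3 CPM, the cKO+/- cerebella 20.4, 20.6, 24.3, 25.6, 25.9 and 27.8 CPM, and the cKO-/- cerebella 26.2, 26.6, 30.7, 31.8, 38.0 and 41.1 CPM. All 6 cKO-/- values and 4 of 6 cKO+/- values were above every control, and the lowest control was Sample_1190. The gene rose by a log2 of 0.41 per allele (SE 0.08, edgeR adjusted p = 0.0022), and between 0.35 and 0.48 in the 26 settings tried, with a call in each.

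Its close neighbour Pcdhgb8, at 37761801 to 37841872, went the other way. Its lowest, median and highest levels were 3.81, 4.73 and 6.38 CPM in controls, 3.34, 4.32 and 5.05 CPM in cKO+/-, and 2.55, 2.83 and 3.17 CPM in cKO-/-. All 6 cKO-/- cerebella lay below every control, as did 2 of 6 cKO+/- ones. The allele effect was -0.38 (SE 0.07, edgeR adjusted p = 0.00278), called in all 26 settings.

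Pcdhga12, the last A-type gene, at 37765580 to 37841872, had 13.8, 26.1 and 28.3 CPM in controls, 18.9, 25.6 and 31.7 CPM in cKO+/- and 13.1, 14.9 and 20.2 CPM in cKO-/-. The cKO-/- values were below 5 of the 6 controls, the exception being Sample_1190 at 13.8 CPM, and 2 of 6 cKO+/- values were above every control. Its allele effect was -0.31 (SE 0.09, edgeR adjusted p = 0.0346), but the call was lost when any of Sample_936, Sample_1129, Sample_1155, Sample_1192, Sample_1371, Sample_1379 or Sample_1385 was left out, or with a covariate for animal numbers described with the hippocampus (-0.29, edgeR adjusted p = 0.225; 0.00366 to 0.225 over all settings). Pcdhga11, the gene between Pcdhgb7 and Pcdhgb8, had an allele effect of -0.20 (edgeR adjusted p = 0.201) that was called without Sample_1190, so 3 genes in a row, Pcdhga11, Pcdhgb8 and Pcdhga12, lay below 0 directly after Pcdhgb7. The first 10 gamma genes, Pcdhga1 to Pcdhgb4, all lay above 0 (0.01 to 0.17), with the low control Sample_1190 included, and none of these was called. Between them and Pcdhgb7, the A-type genes Pcdhga8 (-0.10), Pcdhga9 and Pcdhga10 lay below 0 and the B-type genes Pcdhgb5 and Pcdhgb6 above 0. Without Sample_1190 the 12 gamma-A members had 6 effects above 0 and 6 below.

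In a ratio within each library, which does not depend on depth or scaling, Pcdhgb7 over Pcdhgb8 had a lowest, median and highest value of 2.77, 3.72 and 5.60 in control cerebellum, 5.13, 5.68 and 6.10 in cKO+/- and 9.45, 10.7 and 15.8 in cKO-/-. In the hippocampus it was 3.16, 3.98 and 4.91 in controls, 4.58, 4.86 and 6.72 in cKO+/- and 8.59, 10.1 and 18.8 in 5 cKO-/- libraries. Every cKO-/- ratio was above every control and cKO+/- ratio in its tissue. The pair was chosen after the values were seen, for a gene called higher and a gene called lower, so this separation follows from the choice and is a description only. The hippocampal library of Sample_1160, with far fewer gamma counts, had 7.75.

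**Figure D3:**
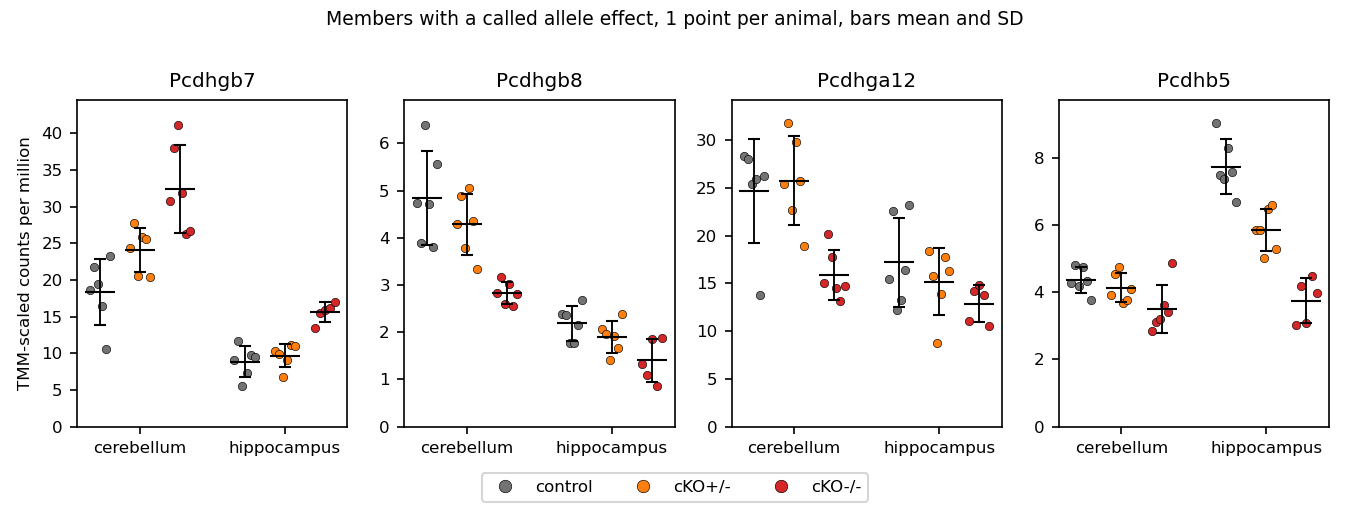
TMM-scaled CPM (y axis) of Pcdhgb7, Pcdhgb8, Pcdhga12 and Pcdhb5 in each animal by tissue and genotype (x axis), with bars at the mean and SD and the hippocampal library of Sample_1160 left out. Pcdhgb7 is above every control in 6 of 6 cKO-/- cerebella and 5 of 5 cKO-/- hippocampi, and Pcdhb5 is below every control in 5 of 5 cKO-/- hippocampi.

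The 5 C-type genes had higher cerebellar values with fewer alleles, yet none passed the test in edgeR. Their allele effects ran from 0.18 to 0.30 (median 0.21), with 3 at an unadjusted p under 0.05 and 0 called in edgeR or DESeq2. Pcdhac1 had 1.79, 6.08 and 7.08 CPM in controls and 5.51, 8.35 and 11.1 CPM in cKO-/-, with 4 of 6 cKO-/- cerebella above every control (allele effect 0.30, edgeR adjusted p = 0.108). Pcdhac2, which serotonergic neurons need to space their axons, had 13.8, 44.2 and 53.7 CPM in controls and 41.7, 55.3 and 67.4 CPM in cKO-/- (0.21, edgeR adjusted p = 0.208). The lowest control of both genes was Sample_1190, far below the other 5.

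Pcdhgc3 had 185, 206 and 241 CPM in cKO-/- cerebella (0.18, edgeR adjusted p = 0.228). Pcdhgc4 had 9.12, 22.2 and 28.2 CPM in controls and 24.1, 26.5 and 34.9 CPM in cKO-/- (0.23, edgeR adjusted p = 0.0801), and it was called when control Sample_1170 was left out. Pcdhgc5 had 12.8, 15.2 and 22.1 CPM in cKO-/- (0.19, edgeR adjusted p = 0.134). In Pcdhgc3 and Pcdhgc4 2 of 6 cKO-/- cerebella were above every control, and in Pcdhgc5 3 of 6. Without Sample_1190 all 5 effects were still above 0, with a smaller median of 0.13.

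The beta cluster had no called member in the cerebellum. Its 21 tested members had allele effects of -0.16 to 0.13 (median 0.01), with 0 called in edgeR or DESeq2 and 1 at an unadjusted p under 0.05. That gene was Pcdhb5, with 3.78, 4.30 and 4.81 CPM in controls and 2.84, 3.30 and 4.86 CPM in cKO-/-. Of the cKO-/- cerebella, 5 were below every control and Sample_1385 was above every control. Its allele effect was -0.16 (SE 0.06, edgeR adjusted p = 0.0955), which was called without Sample_1385. The 10 tested alpha members had a median of 0.12 (7 above 0 and 3 below), with 0 called in edgeR or DESeq2 and 1 at an unadjusted p under 0.05, and the alpha median was 0.04 without Sample_1190. Without the filter on low counts, which brings in all 59 members, Pcdha8 was called lower; 5 of 6 cKO-/- and 3 of 6 cKO+/- cerebella were below every control in it.

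The third comparison took the same question to the hippocampus. Of 53 tested members, 2 were called higher (both gamma) and 6 lower (4 beta and 2 gamma) with fewer Pogz alleles, where 4.44% of the 14339 genes tested were called (2.09% higher and 2.35% lower). The members' median allele effect was -0.03 against 0.00 over all genes. An unadjusted p under 0.05 was reached by 20 of 53 members and by 2883 of 14339 genes. Over all 18 libraries, with Sample_1160 included, 0 members were called higher and 3 lower, 45 of 53 lay below 0 and the median was -0.12, where 1.72% of genes were called (0.809% higher and 0.907% lower). In bulk tissue, fewer cells of a type and less RNA per cell cannot be told apart.

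Pcdhb5, a single-exon gene at 37320381 to 37323913, changed most. Its control hippocampi had 6.67, 7.35, 7.49, 7.56, 8.28 and 9.03 CPM, the cKO+/- hippocampi 5.02, 5.29, 5.84, 5.86, 6.46 and 6.60 CPM, and the cKO-/- hippocampi 3.02, 3.07, 3.98, 4.17 and 4.48 CPM. The 3 genotypes did not overlap at all: every cKO+/- value was below every control and every cKO-/- value below every cKO+/- one, and Sample_1160 had 2.82 CPM. The gene fell by 0.51 per allele on the log2 scale (SE 0.06, edgeR adjusted p = 3.43e-05), and it was the 1 member called in all 26 hippocampal settings (-0.55 to -0.47).

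Its neighbours in the row went the same way. Pcdhb4, at 37307455 to 37311173, had 2.70, 3.95 and 4.94 CPM in controls, 2.12, 2.80 and 4.07 CPM in cKO+/- and 1.66, 2.22 and 2.81 CPM in cKO-/-, with 4 of 5 cKO-/- values below every control (allele effect -0.42, SE 0.09, edgeR adjusted p = 0.00919). Pcdhb3, at 37300799 to 37304585, had 7.01, 7.97 and 8.57 CPM in controls, 5.96, 6.71 and 8.54 CPM in cKO+/- and 4.88, 5.73 and 6.11 CPM in cKO-/- (-0.23, SE 0.05, edgeR adjusted p = 0.0113). All 5 cKO-/- values of Pcdhb3 and 3 of 6 cKO+/- values were below every control.

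Pcdhb7, at 37341702 to 37345207, had 11.6, 12.4 and 15.6 CPM in controls and 8.68, 9.55 and 11.1 CPM in cKO-/-, with all 5 cKO-/- and 4 of 6 cKO+/- values below every control (-0.18, SE 0.05, edgeR adjusted p = 0.0498). Its p lay at the threshold, and the call held in 7 of 26 settings. Of the 43-base windows of these genes, 8.51% in Pcdhb5, 5.06% in Pcdhb4, 4.22% in Pcdhb3 and 11.3% in Pcdhb7 also occur in transcripts of other genes.

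Across the whole beta cluster, 12 consecutive members from Pcdhb2 to Pcdhb13 had an allele effect below 0 (-0.51 to -0.01), and the later genes lay on both sides of 0. Of the 21 tested beta members, 14 were below 0 (median -0.14), and all 9 at an unadjusted p under 0.05 were lower. The beta median stayed below 0 in every setting tried, scaling included. Alpha members had a median of 0.04 (7 above 0 and 3 below), with 0 called in edgeR or DESeq2 and 0 at an unadjusted p under 0.05.

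In the gamma cluster, Pcdhgb7 was again higher. Its control hippocampi had 5.60, 7.36, 9.11, 9.52, 9.81 and 11.6 CPM, cKO+/- hippocampi had 6.78, 10.1 and 11.1 CPM as lowest, median and highest, and the cKO-/- hippocampi had 13.4, 15.5, 15.9, 16.2 and 16.99 CPM. All 5 cKO-/- values were above every control, and no cKO+/- value was. The rise was 0.40 per allele (SE 0.07, edgeR adjusted p = 0.00449), but in Sample_1160 the gene had 0.796 CPM, and over all 18 libraries the call was lost (0.29, edgeR adjusted p = 0.42, the highest of its settings). Pcdhgb4, a B-type gene starting at 37720554, had 3.61, 4.20 and 6.24 CPM in controls, 3.997, 5.11 and 6.63 CPM in cKO+/- and 5.33, 6.94 and 8.08 CPM in cKO-/-, with 4 of 5 cKO-/- values above every control (0.28, SE 0.06, edgeR adjusted p = 0.00929). It too was lost over all 18 libraries (0.14, edgeR adjusted p = 0.728).

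Pcdhga1 and Pcdhga8 were the A-type genes that fell. Pcdhga1, the first gamma gene, had 5.11, 8.37 and 10.5 CPM in controls, 3.13, 5.75 and 7.51 CPM in cKO+/- and 3.93, 5.94 and 6.42 CPM in cKO-/- (-0.32, SE 0.09, edgeR adjusted p = 0.0482). Pcdhga8, starting at 37725706, had 7.73, 12.7 and 18.5 CPM in controls and 7.07, 7.43 and 10.9 CPM in cKO-/- (-0.31, SE 0.08, edgeR adjusted p = 0.039). The groups overlapped in both, with 2 of 5 and 3 of 5 cKO-/- values below every control. The calls held in 8 and 13 of 26 settings.

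Pcdhgb8 had 1.77, 2.26 and 2.68 CPM in control and 0.862, 1.33 and 1.88 CPM in cKO-/- hippocampus, with 3 of 5 cKO-/- values below every control (-0.31, SE 0.09, edgeR adjusted p = 0.0658). It passed in DESeq2, and in edgeR only without Sample_1385, which makes 2 of 26 settings. Pcdhga12 had 12.2, 15.96 and 23.2 CPM in controls and 10.5, 13.8 and 14.9 CPM in cKO-/- (-0.21, edgeR adjusted p = 0.101). Over the cluster, gamma-A members had a median of -0.11 (4 above 0 and 8 below) and gamma-B members 0.08 (5 above and 2 below).

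The C-type genes had a median of 0.06 in the hippocampus, with 4 above 0 and 1 below, 1 at an unadjusted p under 0.05 and 0 called in edgeR or DESeq2. Pcdhgc4 had 9.06, 9.54 and 13.4 CPM in controls and 10.9, 13.8 and 14.9 CPM in cKO-/- (0.16, edgeR adjusted p = 0.142), with 3 of 5 cKO-/- values above every control, and was called higher with a covariate, chosen after seeing the data, for each library's slope on exon length (edgeR adjusted p = 0.0325). Pcdhgc5, the C-type gene with the most hippocampal RNA per length, had 83.8, 101 and 138 CPM in controls and 88.1, 94.4 and 111 CPM in cKO-/- (-0.07, edgeR adjusted p = 0.384). Both genes overlapped between genotypes. Pcdhac1, Pcdhac2 and Pcdhgc3 had allele effects of 0.06, 0.05 and 0.09, which turned to -0.07, -0.08 and -0.03 over all 18 libraries.

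**Figure D4:**
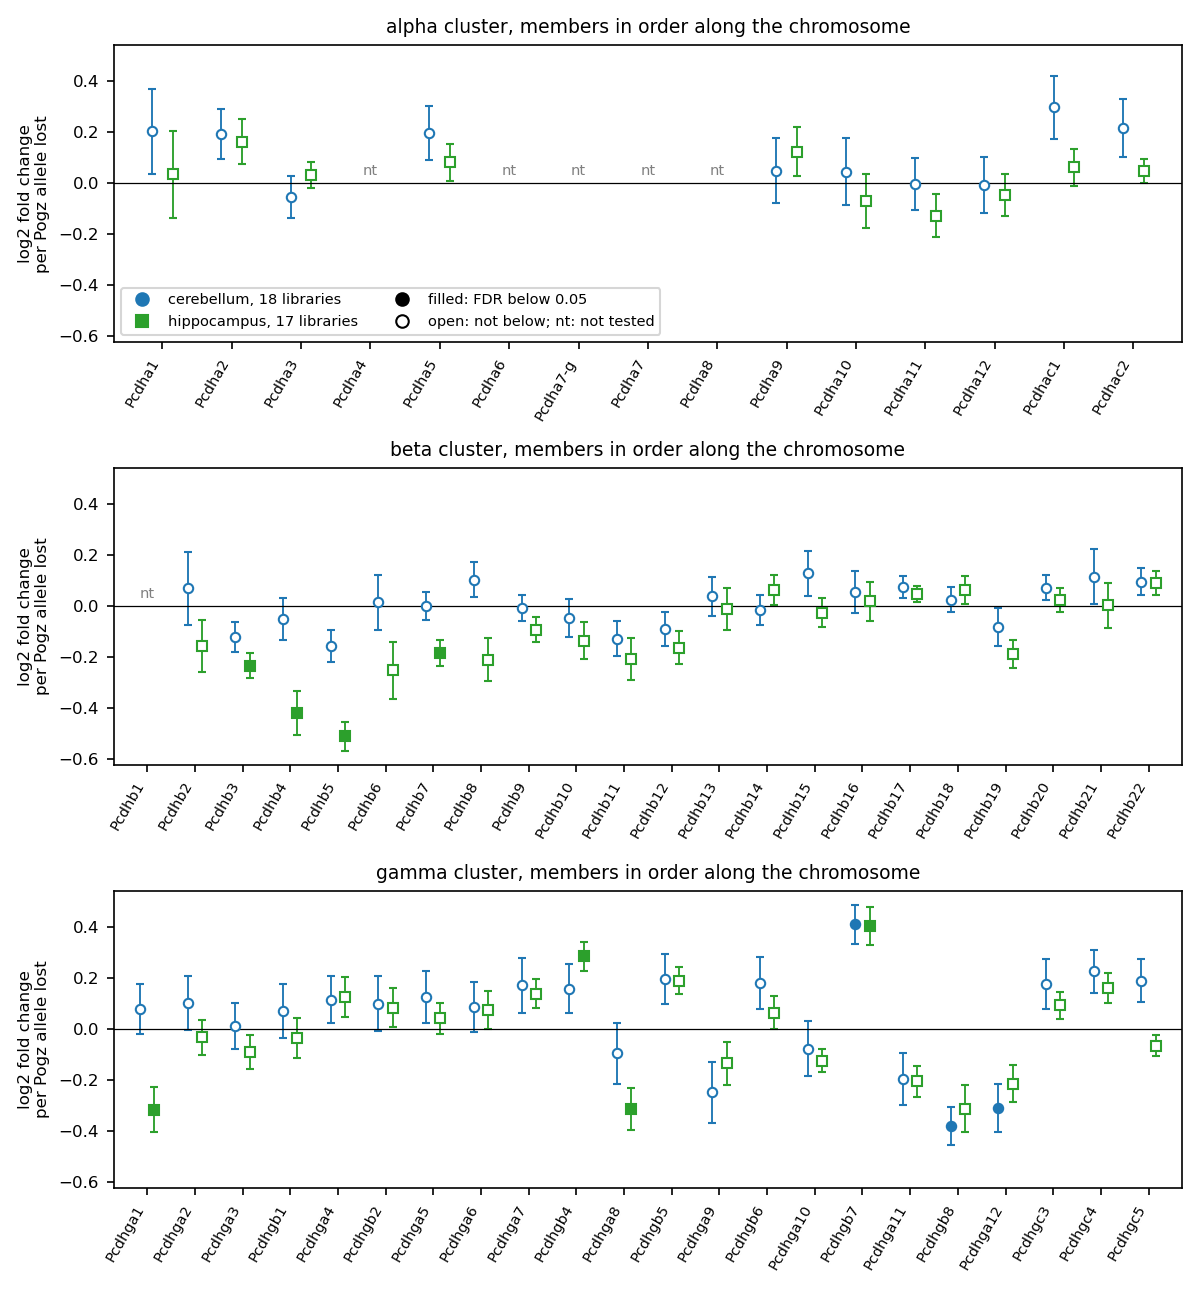
Allele effect (y axis, log2 fold change per Pogz allele lost, bars SE) of each member in cerebellum (18 libraries, circles) and hippocampus (17 libraries, squares), with members in chromosomal order along the x axis, filled where called and nt where not tested. Pcdhb3, Pcdhb4, Pcdhb5 and Pcdhb7 stand below 0 in hippocampus, Pcdhgb7 stands near 0.4 in both tissues, and Pcdhgb8 and Pcdhga12 lie below 0 beside it.

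These hippocampal calls depended on libraries, on covariates and, for Pcdhb7, Pcdhga1 and Pcdhga8, on other settings of the fit. All 6 controls were animals in the range from Sample_1129 to Sample_1192, while 3 cKO+/- and 4 cKO-/- animals had numbers outside the run from Sample_1120 to Sample_1219; whether the numbers mark a batch is not stated, and they and the genotype cannot be fully told apart. With a covariate for those animals, 1 hippocampal member was called, Pcdhb5 (-0.47, edgeR adjusted p = 0.00514, the highest of its settings), and 68 of 14339 genes, and the cerebellum kept Pcdhgb7 and Pcdhgb8 and 308 of 14027 genes. The lost hippocampal calls kept their direction: Pcdhb3 was at -0.24 (edgeR adjusted p = 0.204), Pcdhb4 at -0.38 (edgeR adjusted p = 0.296), Pcdhgb7 at 0.37 (edgeR adjusted p = 0.197) and Pcdhgb4 at 0.25 (edgeR adjusted p = 0.292), with Pcdhb7 at -0.16 (edgeR adjusted p = 0.643), Pcdhga1 at -0.34 (edgeR adjusted p = 0.49) and Pcdhga8 at -0.34 (edgeR adjusted p = 0.361). Within the run only 2 cKO-/- animals remain in the cerebellum and 1 in the hippocampus: Pcdhgb7 had 38.0 and 41.1 CPM in those cerebella and 15.5 CPM in that hippocampus, above every control, and Pcdhb5 had 4.17 CPM in that hippocampus, below every control. Without control Sample_1129, the library with high cerebellar markers, 2 members were called higher and 3 lower (Pcdhb3, Pcdhb4 and Pcdhb5), and the number called lower was also 3 without any of Sample_933, Sample_1155, Sample_1189, Sample_1190, Sample_1192 or Sample_1371, and 9 without Sample_1385.

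Whether an allele effect differed between the tissues was tested in a joint fit of 35 libraries. Of 53 tested members, 1 was called, with a lower value in hippocampus, where 1.49% of the 13587 genes tested were called (0.25% higher and 1.24% lower). That gene was Pcdhb5: its effect of -0.51 in hippocampus and -0.16 in cerebellum differed by -0.36 (SE 0.08, edgeR adjusted p = 0.0174; 0.00266 to 0.979 over 24 settings). Below every control were 11 of 11 cKO hippocampi and 7 of 12 cKO cerebella, and the cerebellar effect alone did not pass its test. Over all 18 hippocampal libraries Pcdhb5 was again the 1 member called (-0.40), where 1.18% of genes were called (0.206% higher and 0.972% lower). The call was lost without Sample_1371 or Sample_1385 and with the covariate for animal numbers (-0.27).

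The other beta genes that fell in hippocampus did not pass this test. Pcdhb4 differed by -0.38 (edgeR adjusted p = 0.122), Pcdhb3 by -0.12 (edgeR adjusted p = 0.522) and Pcdhb7 by -0.19 (edgeR adjusted p = 0.246), with cerebellar allele effects of -0.05, -0.12 and 0.00. Pcdhga1 differed by -0.40 (edgeR adjusted p = 0.148). Pcdhgb7, called in both tissues, differed by -0.01 (edgeR adjusted p = 0.971), and Pcdhgb8 by 0.06 (edgeR adjusted p = 0.871). A p that misses the threshold does not show that values did not differ. Of the members tested, 44 of 53 had a difference below 0 (median -0.09 against 0.00 over all genes), among them 19 of 21 beta, 17 of 22 gamma and 8 of 10 alpha members. Without Sample_1190, whose cerebellar library was low, 33 of 53 were below 0 (median -0.04), and the gamma median turned from -0.05 to 0.03.

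Relative shares within a cluster set aside how much of it was sequenced. Gamma-A members made up 37.8% of gamma CPM on average in control cerebellum (36.4% to 40.6%), 36.4% in cKO+/- (35.4% to 37.8%) and 30.4% in cKO-/- (28.0% to 32.9%). In hippocampus the gamma-A share was 40.0% in controls (39.2% to 40.5%), 38.4% in cKO+/- and 35.6% in cKO-/- (34.8% to 36.4%). All cKO-/- libraries of this count lay below all controls in both tissues, Sample_1190 included, and cKO+/- libraries overlapped the controls. The gamma-B share was 13.7% in control hippocampus (13.1% to 14.01%), 14.4% in cKO+/- (13.6% to 15.3%) and 16.97% in cKO-/-, where the lowest was 16.4%. Only the cKO-/- libraries were apart there, while cKO+/- libraries overlapped the controls. In cerebellum it was 19.0%, 19.1% and 21.1%, with overlap. The cKO-/- cerebella were split: Sample_1371, Sample_1379 and Sample_1385 had gamma-B shares of 19.1% to 19.4% and C-type shares of 51.3% to 52.9%, and Sample_936, Sample_1160 and Sample_1219 had 21.6% to 23.7% and 43.6% to 45.9%. Cell type markers split the same libraries: the first 3 had Gabra6 at 649, 708 and 498 CPM and Pcp2 at 421, 431 and 474 CPM, and the others had Gabra6 at 754, 1017 and 1012 CPM and Pcp2 at 218, 301 and 311 CPM. Gabra6 in Sample_936 was also below every control, the lowest of which had 910 CPM. The cKO+/- cerebellum of Sample_1433 had Gabra6 at 677 CPM, with gamma-B and C-type shares of 19.6% and 44.8%. Of these cKO libraries, only Sample_1160 and Sample_1219 have animal numbers within the run of the controls. Their Gabra6 lay within the control range (910 to 1040 CPM). The part of cell numbers in the shares was not tested. Gamma C-type genes took 43.2%, 44.5% and 48.5% in cerebellum and 46.4%, 47.2% and 47.4% in hippocampus, and the 2 alpha C-type genes took 61.5%, 66.1% and 68.3% of alpha CPM in cerebellum and 56.1%, 55.0% and 57.2% in hippocampus. Shares of a whole move against each other by construction, and they were not tested.

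**Figure D5:**
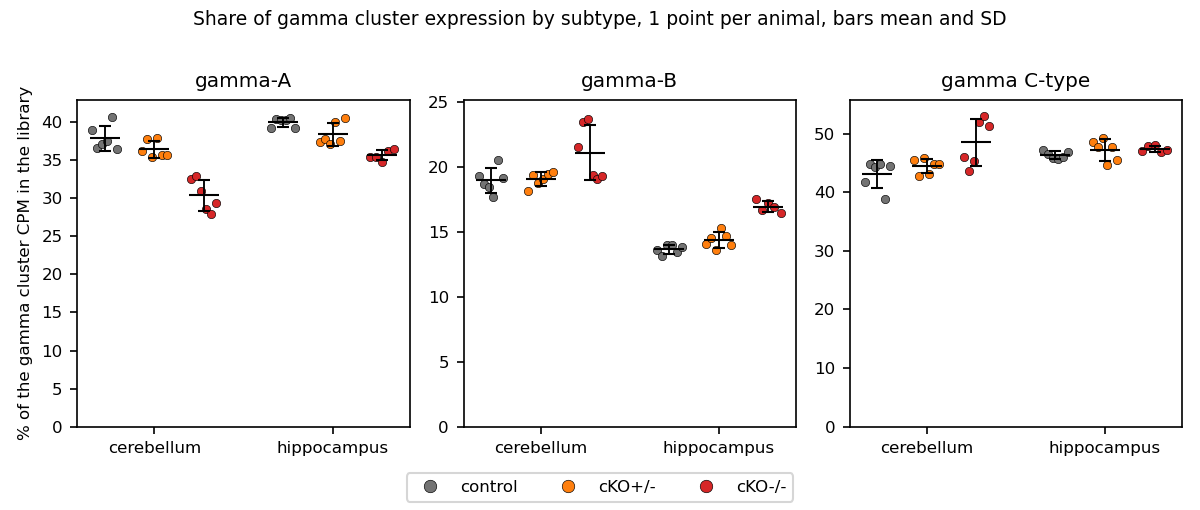
Share of gamma cluster CPM (y axis, percent) held by A-type, B-type and C-type members in each animal, by tissue and genotype (x axis), with bars at the mean and SD and the hippocampal library of Sample_1160 left out. The gamma-A share is 36.4% to 40.6% in control and 28.0% to 32.9% in cKO-/- cerebella.

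To ask how much of this is seen with 1 allele lost, each cKO genotype was set against the controls. The comparisons share their controls, so their values are given side by side only. In cKO+/- cerebellum, 0 of 53 members were called by edgeR, where 0.342% of genes were called (0.299% higher and 0.0428% lower). There 2 members had an unadjusted p under 0.05, as did 1631 of 14027 genes. In cKO+/- hippocampus, 0 members were called, where 0.0349% of genes were called (0.0279% higher and 0.00697% lower). There 7 members had an unadjusted p under 0.05, as did 1440 of 14339 genes. DESeq2 was not run on the cKO+/- contrasts. In cKO-/-, 1 was called higher and 2 lower in cerebellum (12.7% of genes called, 6.83% higher and 5.86% lower) and 2 higher and 4 lower in hippocampus (4.87% of genes called, 2.29% higher and 2.59% lower).

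Pcdhgb7 had a cerebellar log2 difference of 0.39 in cKO+/- (edgeR adjusted p = 0.382) and 0.82 in cKO-/- (edgeR adjusted p = 0.00332), and hippocampal ones of 0.14 (edgeR adjusted p = 0.801) and 0.82 (edgeR adjusted p = 0.00203). Pcdhb5 in hippocampus had -0.40 in cKO+/- (edgeR adjusted p = 0.213) and -1.04 in cKO-/- (edgeR adjusted p = 3.72e-05). Pcdhb5 was thus at an intermediate level in cKO+/- hippocampus, where 6 of 6 were below every control, and Pcdhgb7 in cKO+/- cerebellum, where 4 of 6 were above every control. In cKO+/- hippocampus, 18 of 21 beta members had a value below 0 (median -0.18), and in cKO+/- cerebellum all 12 gamma-A members were above 0 (median 0.24), against the same controls that include Sample_1190.

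Counting members whose cKO-/- and control libraries do not overlap gave a like list. In cerebellum 1 of 59 members was above every control (Pcdhgb7) and 1 below (Pcdhgb8), where 4.58% of all genes tested did not overlap (2.67% above and 1.9% below). In hippocampus 1 was above (Pcdhgb7) and 3 were below (Pcdhb3, Pcdhb5 and Pcdhb7), where 3.65% of genes did not overlap (1.53% above and 2.12% below).

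Other genes of the pathway were read from lists, beside shares over all genes of 7.11% higher and 6.55% lower in cerebellum and 2.09% higher and 2.35% lower in hippocampus. An unadjusted p under 0.05 was reached by 4233 of 14027 genes in cerebellum and by 2883 of 14339 in hippocampus. Pcdh1, within 500 kb of the gamma cluster, counts both as a nonclustered protocadherin and as a gene near the clusters. The nonclustered protocadherins, single genes outside the clusters, had 4 of 12 called higher and 0 lower in cerebellum (median 0.26 against 0.00), with 7 higher and 0 lower at an unadjusted p under 0.05 and the same counts called in DESeq2. The 4 were Pcdh17 (allele effect 0.43, edgeR adjusted p = 0.00189), Pcdh10 (0.27, edgeR adjusted p = 0.0165), Pcdh18 (0.34, edgeR adjusted p = 0.0242) and Pcdh11x (0.35, edgeR adjusted p = 0.039). Their list summed to 321 ± 62.1, 419 ± 35.6 and 444 ± 60.4 CPM in controls, cKO+/- and cKO-/- (mean ± SD). The control sums ran from 211 to 381 CPM (median 341) and overlapped both cKO groups, whose lowest sums were 380 and 356 CPM. No value of this list without Sample_1190 is given. In hippocampus 3 of 11 were higher and 0 lower (median 0.08): Pcdh9 (0.21, edgeR adjusted p = 0.00598), Pcdh18 (0.32, edgeR adjusted p = 0.0227) and Pcdh11x (0.58, edgeR adjusted p = 0.00082), of which Pcdh11x was called over all 18 libraries. There 4 were higher and 1 lower at an unadjusted p under 0.05, and DESeq2 called 4 higher and 1 lower. With the covariate for animal numbers 1 was called in cerebellum and 0 in hippocampus. The list was also higher in control hippocampus than in control cerebellum, with 10 of 11 called (median 1.43), where 35.2% of all genes were called higher and 36.7% lower.

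Chromatin and loop factors of promoter choice had 2 of 25 called higher and 0 lower in each tissue, with medians of -0.04 and -0.03, in edgeR (7.11% of all genes were higher in cerebellum and 2.09% in hippocampus). At an unadjusted p under 0.05, 3 were higher and 5 lower in cerebellum and 2 higher and 1 lower in hippocampus, and DESeq2 called 2 higher and 3 lower in cerebellum and 2 higher and 0 lower in hippocampus. In cerebellum these were Rest, a repressor of neuronal genes (0.32, edgeR adjusted p = 0.0349), and Atf7ip, a partner of the SETDB1 methyltransferase (0.33, edgeR adjusted p = 0.00973). In hippocampus they were Atf7ip (0.24, edgeR adjusted p = 0.000252) and the cohesin subunit Rad21 (0.10, edgeR adjusted p = 0.0449), and 0 were called over all 18 libraries. Ctcf itself had a cerebellar allele effect of -0.04 (edgeR adjusted p = 0.491). In control tissues 3 of the 25 were higher and 16 lower in hippocampus, beside 35.2% and 36.7% of all genes.

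Membrane and signalling partners of the proteins had 2 of 20 called higher and 0 lower in cerebellum in edgeR and in DESeq2 (median 0.02, with 2 higher and 0 lower at an unadjusted p under 0.05), Marcks (0.19, edgeR adjusted p = 0.00603) and the WAVE complex subunit Cyfip1 (0.12, edgeR adjusted p = 0.0367). In hippocampus edgeR called 0 of 20 and DESeq2 0, with 2 higher and 2 lower at an unadjusted p under 0.05. Between control tissues 12 were higher and 4 lower in hippocampus, beside the same 35.2% and 36.7%.

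Genes within 500 kb outside the clusters or lying between members had 1 of 28 tested called higher and 4 lower in cerebellum (median -0.03): Rell2 was higher (0.16, edgeR adjusted p = 0.0242), and Eif4ebp3 (-0.37, edgeR adjusted p = 0.0263), Apbb3 (-0.14, edgeR adjusted p = 0.0357), Tmco6 (-0.22, edgeR adjusted p = 0.0123) and Hars2 (-0.21, edgeR adjusted p = 0.021) were lower. None of these 5 was called with the covariate for animal numbers. In hippocampus edgeR called 0 of 28 and DESeq2 1, with 3 higher and 4 lower at an unadjusted p under 0.05. Rell2 differed between the tissues (-0.26, edgeR adjusted p = 0.0491). Between control tissues 11 were higher and 8 lower in hippocampus, where 71.9% of all genes were called. Pcdh1, also in the nonclustered list, was among the higher ones.

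Markers of other cell types moved with the genotype in the cerebellum, and their part in the protocadherin values was not tested. Astrocyte markers had 2 of 4 called higher, Gfap (0.52, edgeR adjusted p = 0.00469) and Aqp4 (0.33, edgeR adjusted p = 0.000736), with Gdf10 lower at an unadjusted p under 0.05 (-0.14, edgeR adjusted p = 0.0925), and summed to 2570, 2876 and 2918 CPM in controls, cKO+/- and cKO-/-, with Slc1a3 the most abundant. Microglia markers had 2 of 4 called higher, P2ry12 and Cx3cr1, with sums of 64.2, 78.1 and 82.9 CPM, with Csf1r the most abundant. Interneuron markers had Sst and Gad2 called higher among 4, hippocampal neuron markers Wfs1 and Neurod6 among 4, and serotonergic markers Tph2 as the 1 gene tested.

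Granule cells make up most cerebellar neurons, and their 4 markers had 0 called in edgeR or DESeq2 and 1 lower at an unadjusted p under 0.05 (median -0.12), with mean sums of 4470, 4357 and 3750 CPM, of which Cbln3 was the most abundant. The cKO-/- sums were 2875, 3447 and 2560 CPM in Sample_1371, Sample_1379 and Sample_1385 and 3909 CPM in Sample_936, all below every control (4043 to 4908 CPM). They were 5072 and 4635 CPM in Sample_1160 and Sample_1219, the cKO-/- animals with numbers within the run of the controls. The lowest cKO+/- sum was 2761 CPM, also below every control. Purkinje cell markers had 0 of 4 called in edgeR or DESeq2 and 1 higher at an unadjusted p under 0.05, with sums of 9174, 9707 and 11253 CPM, with Itpr1 the most abundant. Oligodendrocyte markers had 0 of 4 called in edgeR and 2 in DESeq2, all 4 higher at an unadjusted p under 0.05, with sums of 4242, 5289 and 5751 CPM. Endothelial markers had 0 of 3 called in either tool and 0 at an unadjusted p under 0.05, and choroid plexus markers 0 of 4 in edgeR and 1 in DESeq2 with 1 at an unadjusted p under 0.05. Choroid plexus sums reached 18.9 CPM in control cerebella (mean 15.8), 3154 CPM in cKO+/- (mean 926) and 3014 CPM in cKO-/- (mean 530). The high libraries were Sample_933, Sample_936 and Sample_1433, with Ttr at 2177, 2807 and 2936 CPM, all with animal numbers outside the run of the controls. Hippocampal sums reached 4891 CPM in controls and 4952 CPM in cKO-/-. Markers at 0 counts in some cerebellar libraries were Slc6a4 (7 of 18 libraries) and Fev (3) of the serotonergic list and Folr1 (11) and Ttr (2) of the choroid plexus list.

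In the hippocampus, hippocampal neuron markers had 1 of 5 called lower, Wfs1, a gene of CA1 neurons (-0.50, edgeR adjusted p = 0.000876), and summed to 792, 728 and 729 CPM, with Fibcd1 the most abundant on average. Wfs1 also differed between the tissues (-0.62, edgeR adjusted p = 6.83e-05). The list's median allele effect in hippocampus was -0.03, with 1 lower and 0 higher at an unadjusted p under 0.05. Aqp4 among 4 astrocyte markers (0.35, edgeR adjusted p = 0.00388) and Pecam1 among 3 endothelial markers (0.27, edgeR adjusted p = 0.0482) were called higher. Endothelial sums were 60.2, 69.2 and 86.6 CPM in hippocampus and 110, 118 and 110 CPM in cerebellum. The tissue difference of their allele effect had a median of 0.23, with 2 of 3 higher at an unadjusted p under 0.05 and 0 called in edgeR or DESeq2. Over all genes, 1851 of 13587 had such a p. Gabra6 was at 0 counts in 6 of 18 hippocampal libraries, Fev in 9 and Slc6a4 in 3. In edgeR 0 were called of 3 Purkinje cell, 2 granule cell, 4 interneuron, 1 serotonergic, 4 oligodendrocyte, 4 microglia and 5 choroid plexus markers, of which 2 oligodendrocyte markers had an unadjusted p under 0.05 and the others 0, and DESeq2 called 0 of any of these lists. Between control tissues, 4 microglia and 2 choroid plexus markers were higher in hippocampus, 1 oligodendrocyte and 2 endothelial markers were lower, and astrocyte and interneuron markers had 1 higher and 3 lower each.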

How the data were processed

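Raw counts per gene were taken as deposited: the authors aligned 43-base read pairs with STAR 250a and counted reads per gene, with 1 table for each tissue. The deposited Length column holds the exon length of each gene in bases (its unit is listed as other). The labels name mm9, but the gene coordinates match GRCm38: of 58 members found in the RefSeq annotation of that build, 58 start within 1000 bases. Members and gene lists were chosen with earlier results of these data known.

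The filter kept genes with over 1 CPM in 6 or more libraries; they were fitted with edgeR 4.0.16 (TMM, quasi-likelihood F-test with legacy=TRUE, R 4.3.3, limma 3.58.1) on sex and on Pogz allele number (2, 1 or 0 intact), with Benjamini-Hochberg adjustment over all genes tested at 0.05. The hippocampal fit left out Sample_1160, with filter and TMM factors over all 18 libraries. The difference between tissues came from 1 fit of 35 libraries with sex and alleles by tissue, and the control tissue difference from 6 libraries against 6 with sex. Tables and figures were made with Python 3.11.15, pandas 2.3.3, numpy 2.4.6 and matplotlib 3.10.9.

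Libraries of the 2 tissues were paired by the animal number in their titles. Deviations from the group means, taken across genes, correlated between the 2 libraries of an animal with a median r of 0.217 over 17 animals (-0.148 to 0.435), a description across genes, which are not independent. Pairing was used as a replicate block in the alternatives only.

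Named with values were the 5 C-type members and Pcdhb1, every member called for an allele effect (at least the 5 smallest p in each tissue) or for the tissue difference, the 2 highest control levels in each cluster and tissue, and the 3 largest called control tissue differences each way. Pcdhb3, Pcdhb4, Pcdhb6, Pcdhb8 and Pcdhgb1 in the control tissue comparison, Pcdha8, the ratio of Pcdhgb7 to Pcdhgb8, and the list and marker genes, were chosen after their values were seen. The lists were nonclustered protocadherins, chromatin and loop factors, partners, genes near the clusters and cell type markers. Alternatives were DESeq2 1.42.0, relative log expression scaling, no filter, the bias-adjusted fit, no sex term, genotype as a factor, covariates for animal numbers and for the length slope, all 18 hippocampal libraries, the replicate block, full exon lengths, and each animal left out.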

Additional observations from a re-analysis of the deposited data

Results flagged for a closer look

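In 14 of 150 groups of 6 libraries, 1 library lay far from the other 5, where chance gives about 1 in 20 for independent groups. These groups were not independent, since cluster sums hold the single genes and several flags came from the same library. Cerebellar control Sample_1190 was low in the alpha sum (29.4 CPM), the gamma sum (209 CPM), Pcdhga11 (16.99 CPM) and Pcdhga12 (13.8 CPM). Hippocampal cKO-/- animal Sample_1160 was low in the alpha sum (1.87 CPM) and the gamma sum (13.96 CPM). Hippocampal control Sample_1155 was high in the beta sum (194 CPM), Pcdhb20 (15.5 CPM), Pcdhb7 (15.6 CPM) and Pcdhga11 (33.3 CPM).

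Cerebellar control Sample_1192 was high in Pcdhb17 (27.0 CPM) and Pcdhb7 (9.93 CPM), cerebellar cKO-/- animal Sample_1160 in Pcdhb1 (0.446 CPM, where the next was 0.0374), and hippocampal cKO+/- animal Sample_1120 was low in the beta sum (126 CPM). The allele effect of Pcdhb5 differed between the tissues by a log2 of -0.36 (edgeR adjusted p = 0.0174), with 11 of 11 cKO hippocampi below every control.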

How the results depend on the processing

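In the cerebellum, members called higher went from 1 to 2 with the length-slope covariate, chosen after seeing the data, and members called lower from 2 to 1 with the covariate for animal numbers. Leaving out 1 animal at a time gave 1 to 2 higher and 1 to 3 lower. In the hippocampus, members called higher went from 2 to 0 over all 18 libraries, 0 with the animal-number covariate and 4 with the length slope, and members called lower from 6 to 3 over all 18 libraries and 1 with the animal-number covariate. Leaving out 1 animal gave 2 to 3 higher and 3 to 9 lower there. The tissue difference of the allele effect, with 1 member called, had 0 with the animal-number covariate and 0 to 1 when an animal was left out. In control tissues, leaving out 1 animal gave 9 to 11 higher and 11 to 22 lower. The cause was not tested in any of these.

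With the animals paired as a replicate block, the tissue difference of Pcdhb5 was -0.38 (edgeR adjusted p = 0.0238) against -0.36 unpaired, and control tissues had 11 members higher and 13 lower against 11 and 14. The block changed no other call among the members.

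Whole-table counts differed more. The cerebellum had 1916 genes called and 308 with the animal-number covariate; leaving out 1 animal gave 899 (Sample_1385), 1014 (Sample_1190), 1148 (Sample_1129) and 1221 (Sample_1371), and up to 2555 (Sample_1160). The hippocampus had 636, against 68 with that covariate, 246 over all 18 libraries, 1056 in DESeq2 and 1260 with the length slope, and 278 (Sample_1371), 298 (Sample_1379) and 354 (Sample_1190) to 929 (Sample_936) with 1 animal left out. The tissue difference had 203, against 10 with the animal-number covariate, 335 with the block, 337 in DESeq2, 345 with the length slope, and 85 (Sample_1190) to 363 (Sample_1160) with 1 animal left out.

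Among members, DESeq2 called 1 higher and 2 lower in cerebellum and 3 higher and 9 lower in hippocampus. Without the low-count filter all 59 members were tested: Pcdha8 was called lower in cerebellum, and between control tissues Pcdha8 was lower and Pcdha4 higher in hippocampus. With the filter neither was tested.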
